A study of Mus musculus with 13 samples.

Results

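The comparison asks whether oncogenic *Nras* and mutant *Trp53* together move the RNA levels of bone marrow HSPCs by more or less than the sum of what each does alone. Its members were chosen by genotype label and are 13 of the 13 samples of the series, because the comparison needs each of 4 genotypes. The series is RNA-Seq of Lin-cKit+ HSPCs from a C57BL/6J mouse model in which the combination of the alleles gives a lethal AML. Each library came from 50000 sorted cells of 1 mouse, by way of the RNeasy Micro kit and the SMARTer Stranded Total RNA-Seq Pico Input kit.

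All mice carried Mx1-Cre, a Cre driven by an interferon-induced promoter, which switches on lox-stop-lox alleles at their own loci. The 3 control mice carried Mx1-Cre alone, 3 p53mut mice also carried p53 R172H/+, 3 NrasG12D mice carried Nras G12D/+, and 4 NPmut mice carried both mutant alleles. The genotype field of the NrasG12D samples reads Nras G21D/+, and G12D is used here as in their titles. Control, p53mut and NrasG12D mice were given pI-pC (a double-stranded RNA analog and interferon inducer) as 3 intraperitoneal doses of 100 μg every other day from about 6 weeks of age. NPmut mice were not given pI-pC and were moribund when taken, whereas the other groups were age-matched and were not. Cre acts in any cell that responds to interferon, so the alleles were not confined to HSPCs.

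NRAS passes signals from growth factor receptors to RAF, MEK and ERK, and the G12D form stays bound to GTP. R172H alters the DNA-binding domain of p53, a transcription factor activated by stress. Interferons induce genes such as *Oas2* and *Ifit1*, and GATA2 and GATA1 act on genes of the megakaryocyte, mast cell and erythroid lineages.

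Values are the interaction term, in log2: the NPmut difference from control minus the sum of the p53mut and NrasG12D differences from control. A term of 0 means that the combination equals that sum, the additive expectation, and a term of −1 means that NPmut cells hold 1/2 of the expected RNA. CPM are counts-per-million after scaling between libraries, and RPKM are CPM per kilobase of transcript. A gene was called when its adjusted p was under 0.05 and its term was at least 1 in size. Genotype, pI-pC and moribund stage cannot be told apart in NPmut mice, and an effect of pI-pC shared by the other 3 groups would enter the term with its sign reversed. The control mean enters each difference, so an unusual control mouse moves every term.

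Libraries held 12576174 counts (NPmut 4) to 29124022 counts (NPmut 2). *Kit*, which encodes the receptor used for sorting, was found in every library, at 568, 505 and 546 CPM in control mice and 370, 288, 450 and 379 in NPmut mice, with an uncalled term of −0.75. By Y-linked RNA and *Xist*, control 1, p53mut 1, NrasG12D 2, NPmut 3 and NPmut 4 were male and the other 8 mice were female.

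The median interferon-stimulated gene, interferon-induced GTPase and megakaryocyte gene lay below the additive expectation in NPmut cells, and the monocyte gene *Irf8*, the Toll-like receptor signaling gene *Irf5* and the NF-kB genes *Nfkbia* and *Tnf* lay above it. *Oas2* and *Ifit1* had higher values in NrasG12D than in control mice, without a call there, and were low in NPmut cells, whereas *Vwf*, *Cavin2* and *Tie1* were near control in the single mutants and low only in NPmut cells. Of 17795 genes tested, 72 were called positive (0.405%) and 167 negative (0.938%), and 69.9% of the 239 called genes were negative. That share was 58.6% with DESeq2, and ran from 52.7% without a filter on low counts to 90.2% without control 2. The median term of all genes was 0.05, with the 5th and 95th percentiles at −1.17 and 1.41. NPmut mice were outside all 9 other mice in 55 of the 72 positive and 139 of the 167 negative genes; over all 17795 genes they lay above all others in 752 and below them in 868. The median standard error of the term was 0.34, so 7792 genes (43.8%) had a 95% interval inside −1 to 1, and 9764 genes were neither called nor bounded in that way.

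Called genes were sorted by their differences from control, taken in the direction of the term. In 33 positive and 67 negative genes NPmut alone differed, by at least 1 with both single mutants inside 0.5; at a mean log2 CPM of at least 1 the largest were *Cavin2*, *Tek*, *Slamf1* and *Slc18a2* on the negative side and *Klrk1*, *Arhgap24*, *AB124611* and *Itga1* on the positive side. In 14 positive and 48 negative genes NPmut and a single mutant went in opposite directions by at least 0.5, with *Iigp1*, *Pf4*, *Oas2* and *Gm17590* the largest negative and *Glt1d1*, *I830127L07Rik*, *Lpl* and *Dgat2* the largest positive at that level. In 9 positive and 16 negative genes a single-mutant difference of at least 0.5 was absent from NPmut, which lay inside 0.5 of control, as for *H2-Q6* and *Lair1*. The patterns rest on estimated differences: of the 239 called genes, only *H2-Q6* passed the adjusted threshold in NrasG12D minus control (adjusted p 0.0132), and none did in p53mut minus control. *P2rx7* and *Fgd2* (positive) and *Gdf3*, *Grb10* and *Phldb2* (negative) showed more than the sum, with a single mutant at least 0.5 in the same direction and neither that far in the other, and 14 positive and 33 negative genes fitted none of these. In the 48 opposite negative genes the median difference was 0.23 in p53mut, 0.86 in NrasG12D and −1.18 in NPmut, for a median term of −2.62. NrasG12D lay at least 0.5 above control in 63 of the 167 negative genes and below it in 3, and p53mut above in 14 and below in none. In the 72 positive genes NrasG12D lay below in 22 and above in 3, and p53mut below in 20 and above in 0. The term subtracts both differences, so calling a gene favors these directions, and the counts are no test of them.

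**Figure D1:**
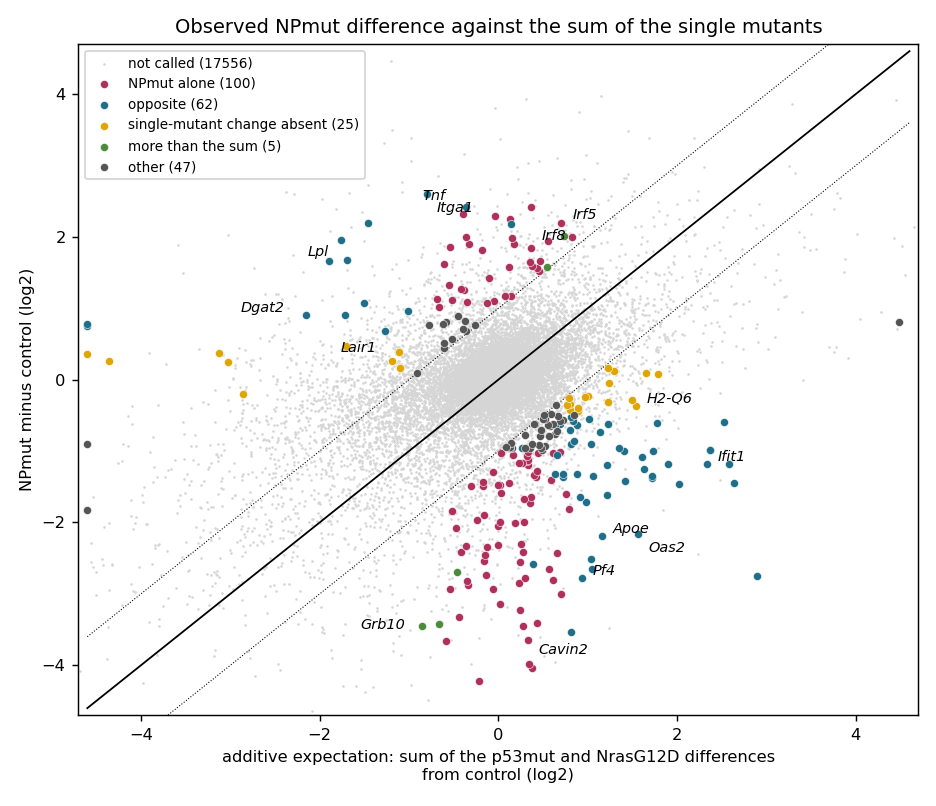
NPmut minus control (y, log2) against the sum of the p53mut and NrasG12D differences from control (x, log2), with each point a gene. The solid line is the additive expectation, the dotted lines are 1 on either side, colors give the patterns of called genes (100 NPmut alone, 62 opposite, 25 single-mutant change absent, 5 more than the sum, 47 other, the rest not called), and called points past the plotted range sit at its edge.

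These counts moved with single mice. Without control 2 the calls fell to 6 positive and 55 negative, and without NPmut 3 they rose to 204 and 327; p53mut 2 also held calls back, with 174 and 216 without it. Positive calls moved more than 1.5-fold without each mouse other than NPmut 2: 15, 6 and 17 without control 1, 2 and 3, 11, 174 and 7 without p53mut 1, 2 and 3, 13, 13 and 20 without NrasG12D 1, 2 and 3, and 27, 204 and 43 without NPmut 1, 3 and 4. Negative calls moved as far without control 1 (87), control 2 (55), control 3 (79), p53mut 1 (79), p53mut 3 (60), NrasG12D 1, 2 and 3 (82, 70 and 81) and NPmut 3 (327). The called genes named here kept their directions, and 5 of the 30 uncalled named genes changed sign in a setting. These fits share most of their mice with the main fit, so a kept sign is no independent support. The 71 called genes named here gave 1615 results, each of 1 gene in 1 setting. Of these results 0 reversed a sign, and 427 weakened the call or the size.

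By library, the fit without control 2 kept the fewest named calls, 2 of 29 positive and 19 of 42 negative, with lost genes at adjusted p up to 0.141. Without p53mut 3 the fit kept 2 and 22, without NrasG12D 1 it kept 3 and 27, without p53mut 1 it kept 4 and 26, and without NrasG12D 2 and 3 it kept 6 and 27 and 5 and 27. Without control 1 and 3 it kept 7 and 27 and 9 and 29. Without NPmut 1, 2, 3 and 4 the fits kept 12 of 28, 20 of 28, 29 and 18 positive and 31, 38, 42 and 34 negative genes, and without p53mut 2 they kept 27 and 39. *Lair1*, *I830127L07Rik*, *Iigp1*, *Cavin2*, *Tgtp1*, *Pf4*, *Oas2*, *Ifit1*, *Ifi44*, *Usp18*, *Apoe*, *Tie1*, *Vwf*, *Selp*, *Grb10*, *H2-Q7*, *H2-T24*, *H2-Q6*, *H2-Q5* and *Dapp1* were called in all 13 fits with a mouse left out.

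Other fits also ended calls of named genes. With library totals as scaling, *Gata2* (adjusted p 0.055), *Slc18a2* (0.054), *Banp* (0.0525), *Trp53inp1* (0.052), *Timp2* (0.0553), *Clstn1* (0.0649), *Cd27* (0.0525), *Nxpe1-ps* (0.052), *Slc16a3* (0.0545) and *Ccr2* (0.0524) missed the threshold, and the term of *Fgd2* was 0.9812. Limma-trend missed *Tek* (0.0522), *AC165960.1* (0.0535), *Banp* (0.0543), *Timp2* (0.0509) and *Ccr2* (0.0547). With background reads in the fit, *Slc18a2* (0.0674), *Gata2* (0.0643), *Banp* (0.0587), *Hsph1* (0.0576), *Clstn1* (0.0605), *Slc16a3* (0.0505), *Ccr2* (0.0576) and *Itga1* (0.0576) missed it. With sex in the fit, *Nfkbia* (0.0525) and *Slc16a3* (0.0514) did, and without a filter *Gata2* (0.094), *Slc18a2* (0.108) and *Slc16a3* (0.0521) did. RLE scaling missed *Clstn1* (0.0505), and the filter of at least 10 counts in every library missed *Timp2* (0.0528) and *Clstn1* (0.0548).

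Interferon-stimulated genes had negative terms, with most values highest in NrasG12D mice and many under the control level in NPmut mice. *Oas2*, which encodes an enzyme that activates RNase L, and *Ifit1*, which binds viral RNA, had the largest negative terms of the list, followed by *Ifi44* and *Usp18*, a protease that limits interferon receptor signaling. p53mut alone left the list near control. Of 35 genes tested of 36 on the list, 14 were called, all negative, against 0.938% of all genes, and the median term was −1.53 against 0.05. All 35 terms were under 0, from −3.72 to −0.22.

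*Oas2* (ENSMUSG00000032690, chr5:120730333-120749853, minus strand) was at 4.89, 5.93 and 6.22 CPM in control, 3.69, 4.13 and 5.56 in p53mut, 15.6, 18.7 and 29.5 in NrasG12D, and 2.07, 1.27, 1.07 and 0.509 in NPmut mice. All NPmut mice lay under all others, and all NrasG12D mice over all others. Its mean RPKM was 1.28, 1, 4.78 and 0.277 in the same order of groups, and its term was −3.72 (standard error 0.48, adjusted p 0.00263). *Ifit1* (ENSMUSG00000034459, chr19:34640871-34650009, plus strand) was at 1.78, 3.34 and 3.67 CPM in control, 2.51, 3.39 and 4.17 in p53mut, 8.97, 13.8 and 15.9 in NrasG12D, and 1.21, 1.85, 1.18 and 0.763 in NPmut mice. NPmut 2 overlapped control 1, and NrasG12D mice were apart from all others. Its term was −3.51 (adjusted p 0.00295).

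The NrasG12D difference from control was 1.90 for *Oas2* (adjusted p 0.061) and 2.13 for *Ifit1* (adjusted p 0.0508), so neither was called there. Against NrasG12D, both fell in NPmut, by 4.06 for *Oas2* (adjusted p 3.68e-05) and 3.32 for *Ifit1* (adjusted p 7.28e-05), in a comparison that called 785 genes (4.41%). *Ifi44* went from 14.2, 25.6 and 30.2 CPM in NrasG12D to 2.93, 2.55, 2.04 and 1.27 in NPmut mice, with a term of −3.47 (adjusted p 0.00619), and *Usp18* had a term of −3.36 (adjusted p 0.00644). NPmut mice lay under all others for *Ifi44*, and for *Usp18* NPmut 1 and 2 overlapped control 1.

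Other called members, taken up after their values were seen, were *Oasl2* (−3.10), *Rtp4* (−3.08), *Oas3* (−2.70), *Ddx58* and *Irf7* (−2.40 each), *Ifi27* (−1.87), *Oasl1* (−1.71), *Ifih1* (−1.53), *Parp14* (−1.35) and *Irf9* (−1.17). *Ddx58* and *Ifih1* encode sensors of double-stranded RNA, and *Irf7* and *Irf9* encode factors that drive the interferon response. Among uncalled members taken in the same way, *Isg15* had a term of −2.70, *Mx1* −0.94 and *Bst2* −0.22. OAS family members share sequence, so their shares of reads are uncertain. Across the list, 31 of 35 genes were at least 0.5 above control in NrasG12D, 20 were at least 0.5 below control in NPmut, and the median differences were 0.05 in p53mut, 0.92 in NrasG12D and −0.60 in NPmut. By mouse, the list median was 0.70, 0.95 and 1.23 in NrasG12D and −0.37, −0.36, −0.73 and −0.997 in NPmut mice, so the groups did not overlap. Calls ranged from 13 to 20 with a mouse left out, the 20 without NPmut 2.

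**Figure D2:**
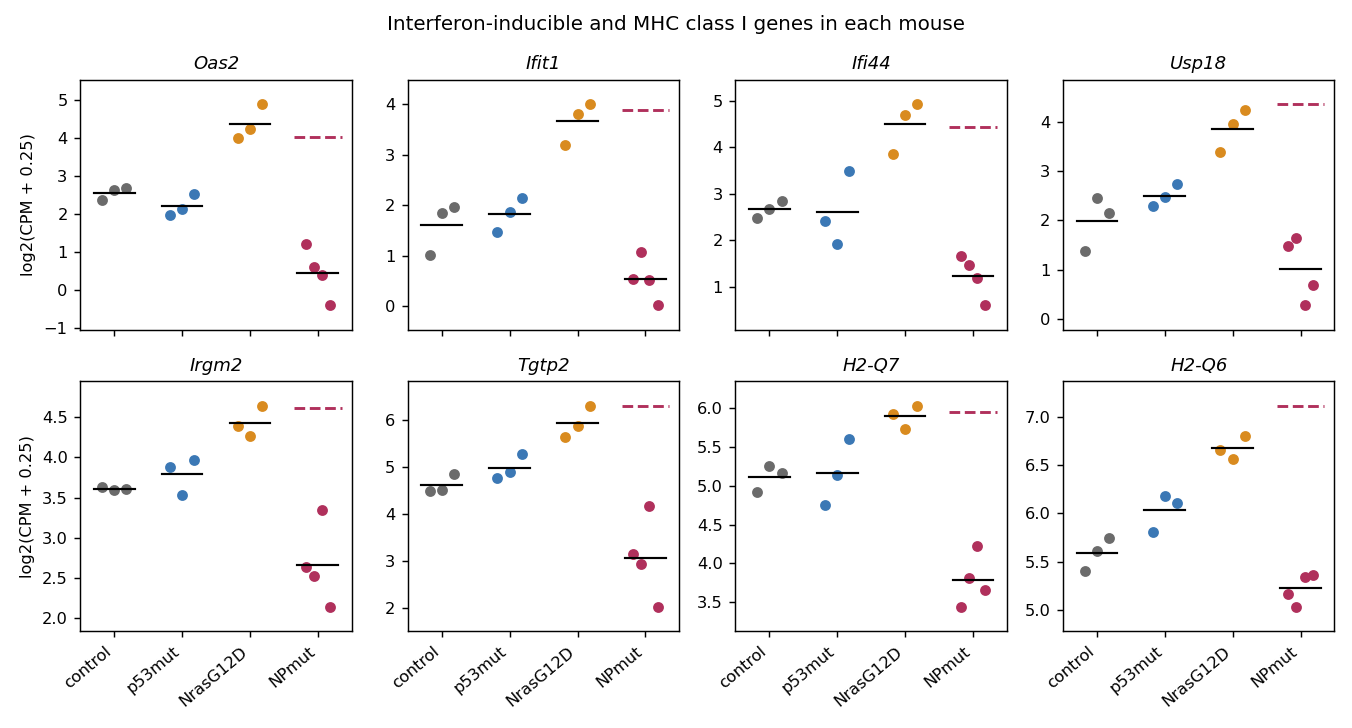
log2 (CPM + 0.25) of *Oas2*, *Ifit1*, *Ifi44*, *Usp18*, *Irgm2*, *Tgtp2*, *H2-Q7* and *H2-Q6* (y) by genotype (x), with each point a mouse and black lines group means. The dashed line in the NPmut column is the additive expectation, which all NPmut mice lie under.

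Interferon-induced GTPases, which coat the vacuoles of intracellular pathogens, also had a negative median term. *Iigp1*, *Tgtp1*, *Tgtp2* and *Irgm2* had their highest means in NrasG12D and their lowest in NPmut mice. Of 16 tested of 18, 7 were called, all negative (0.938% of all genes), with a median term of −1.35. *Iigp1* had the largest (−4.08, adjusted p 0.00568), then *Tgtp1* (−3.76, adjusted p 0.00976) and *Tgtp2* (−3.08, adjusted p 0.0157). *Tgtp1* and *Tgtp2* are near-identical paralogs, so the split of reads between them is uncertain.

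*Tgtp2* (ENSMUSG00000078921, chr11:49057194-49064206, minus strand) was at 22.1, 22.4 and 28.6 CPM in control, 27.1, 29.6 and 38.4 in p53mut, 49.5, 58.6 and 77.7 in NrasG12D, and 8.69, 7.44, 17.9 and 3.82 in NPmut mice. *Irgm2* (ENSMUSG00000069874, chr11:58199618-58222782, plus strand) was at 12.1, 11.8 and 12 CPM in control, 14.5, 11.3 and 15.3 in p53mut, 20.7, 19 and 24.7 in NrasG12D, and 5.96, 5.52, 9.92 and 4.16 in NPmut mice. For both, NPmut mice were under all others and NrasG12D mice over all others. The term of *Irgm2* was −1.94 (adjusted p 0.0136), and *Tgtp2* fell by 2.70 from NrasG12D to NPmut (adjusted p 0.000983). Without control 2, *Tgtp2* and *Irgm2* missed the threshold at adjusted p 0.063 and 0.0549, and both were called without each other mouse. *Gbp2* (−1.71), *Irgm1* (−1.51) and *Igtp* (−1.29), taken up after their values were seen, made up the 7, and with a mouse left out the count ran from 5 to 8.

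Promoter sequence was read for these genes because GAAANNGAA is a core of the interferon-stimulated response element. Within 250 bases before the transcription start, 7.13% of 32851 mouse promoters held it on either strand, as did 6.26% of 13287 promoters of genes tested. The share was 6 of 6 (100%) for called GTPases and 3 of 10 (30%) for called interferon-stimulated genes with a promoter given. The 6 include the near-identical paralogs *Tgtp1* and *Tgtp2*, so they are not 6 independent promoters. The motif was in 19 of 159 (11.9%) promoters of called negative genes, 13 of 44 (29.5%) of the opposite pattern, and 9 of 75 (12%) of called positive genes. Among negative genes it was in 5 of 63 (7.94%) of NPmut alone and 1 of 17 (5.88%) of single-mutant change absent. Called MHC class I genes had it in 0 of 3 promoters and called megakaryocyte genes in 0 of 9. Other motifs were also scanned. The motif TTCNNNGAA was in 5.87% of promoters of genes tested, 10.1% of called negative genes and 15.9% of the opposite pattern. It was in 4 of 6 promoters of called GTPases and 0 of 10 of called interferon-stimulated genes. The motif AGATAA was in 6.47% of genes tested and 13.6% of the opposite pattern. A raised share there was thus not particular to GAAANNGAA. The motif GGAAGT was in 23.4% of genes tested and 11.3% of called negative genes. Stretches of RefSeq GRCm38.p6 are shown for *Ifit1*, *Tgtp2* and *Irgm2*, with capitals marking GAAANNGAA on either strand. The *Ifit1* stretch (chr19:34640755-34640838, plus strand) lies 134 to 51 bases before the start and has 3 matches, all on the opposite strand. The *Tgtp2* stretch (chr11:49064249-49064307, minus strand) lies 95 to 37 bases before it, and the *Irgm2* stretch (chr11:58214888-58214946, plus strand) lies 89 to 31 bases before a start inside the annotated span of that gene, with 1 match each.
Ifit1: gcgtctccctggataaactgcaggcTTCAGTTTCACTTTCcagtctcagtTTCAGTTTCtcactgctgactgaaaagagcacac
Tgtp2: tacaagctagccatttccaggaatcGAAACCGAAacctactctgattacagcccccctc
Irgm2: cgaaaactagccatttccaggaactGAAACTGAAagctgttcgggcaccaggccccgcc

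PYHIN genes, which encode sensors of DNA and are also induced by interferon, had terms of both signs, from −3.76 to 2.16, with 6 above 0 and 6 below. Their median difference was 0.02 in p53mut, 1.198 in NrasG12D and 1.48 in NPmut. Of 12 tested, 0 were called by edgeR, with 2 positive and 3 negative at unadjusted p under 0.05, and DESeq2 and limma-trend called 3 and 2, all negative; the median term was −0.09, which ran from −0.343 without NrasG12D 1 to 0.2959 without p53mut 1. Without NPmut 1 and without NPmut 2, 1 was called negative. Members of this family share sequence, which makes single values uncertain.

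In MHC class I, calls fell on *H2-Q7*, *H2-Q6*, *H2-T24* and *H2-Q4*, of the nonclassical Q and T regions. Their means were highest in NrasG12D and near or under control in NPmut, and the NrasG12D difference passed only for *H2-Q6* (adjusted p 0.0132). Of 24 tested, these 4 were called, all negative (0.938% of all genes), with a median term of −0.48. By mouse the list median was 0.394 to 0.495 in NrasG12D, and NPmut 2, at 0.457, lay inside that range. *H2-Q6* (ENSMUSG00000073409, chr17:35424850-35430055, plus strand) was at 42.1, 48.7 and 53.3 CPM in control, 55.8, 72.2 and 68.7 in p53mut, 101, 94.8 and 112 in NrasG12D, and 35.6, 32.3, 40.3 and 40.7 in NPmut mice. NPmut mice were under all others and NrasG12D mice over all others. The term was −1.91 (standard error 0.18, adjusted p 0.000542), and NPmut fell by 1.46 against NrasG12D (adjusted p 3.68e-05). *H2-Q7* had a term of −2.21 (adjusted p 0.0027) and *H2-T24* −1.95 (adjusted p 0.00364). *H2-Q4* (−1.07, adjusted p 0.0183) missed the threshold without control 2, p53mut 3 and NrasG12D 1, at adjusted p 0.063, 0.0594 and 0.0541, and without NPmut 1 its term was under 1 in size. With a mouse left out, 3 to 5 genes were called. The Q genes share reads, and *H2-Q5*, called outside the list (−1.56, adjusted p 0.016), is annotated as a polymorphic pseudogene.

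Among megakaryocyte genes, calls fell on genes low in the combination. *Pf4*, a platelet chemokine, *Cavin2*, a caveola protein, *Vwf*, which tethers platelets, and *Selp*, their P-selectin, were near or over the control level in both single mutants and low in NPmut mice. Of 27 tested of 30, 12 were called, all negative (0.938% of all genes), with a median term of −2.47. The median differences were 0.20 in p53mut, 0.11 in NrasG12D and −1.96 in NPmut, and in 20 genes all NPmut mice lay under all others, against 868 of 17795 genes tested.

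*Pf4* (ENSMUSG00000029373, chr5:90772435-90773383, plus strand) was at 16.5, 17.9 and 26.5 CPM in control, 25.2, 19.2 and 30.6 in p53mut, 32.8, 27 and 34.8 in NrasG12D, and 3.34, 2.08, 5.15 and 1.02 in NPmut mice. *Vwf* (ENSMUSG00000001930, chr6:125546774-125686679, plus strand) was at 29.9, 29.5 and 47.1 CPM in control, 33.1, 31 and 52.1 in p53mut, 35, 28 and 30.2 in NrasG12D, and 5.41, 2.2, 6.97 and 4.16 in NPmut mice. For both, NPmut mice were under all others. Control and NrasG12D mice were apart for *Pf4*, with NrasG12D the higher, and overlapped for *Vwf*. The terms were −3.72 for *Pf4* (adjusted p 0.00323) and −2.86 for *Vwf* (adjusted p 0.00766). *Pf4* fell by 3.41 from NrasG12D to NPmut (adjusted p 0.000149), and its mean RPKM was 28.1, 34.7, 43.7 and 4.02 in control, p53mut, NrasG12D and NPmut.

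*Cavin2* (ENSMUSG00000045954, chr1:51289126-51302960, plus strand) was at 9.08 to 16.7 CPM in control, 11.1 to 19.9 in p53mut, 13.4 to 15.6 in NrasG12D, and 1.42, 0.579, 2.04 and 0.0848 in NPmut mice, with a term of −3.97 (adjusted p 0.0109). *Selp* had a term of −2.84 (adjusted p 0.00384). *F2rl2*, a thrombin receptor (−3.73, adjusted p 0.0249), was called without p53mut 2 and without each NPmut mouse, and missed the threshold without the other 8 mice at adjusted p 0.0533 to 0.0849. *Slamf1*, the CD150 receptor of HSCs and megakaryocyte progenitors (−3.70, adjusted p 0.0249), missed it without control 1, control 2, p53mut 1, p53mut 3, NrasG12D 1 and NrasG12D 3, at 0.0559 to 0.0929. *Gp1ba* (−3.16), *Rab27b* (−3.09), *Gp5* (−2.47), *Nrgn* (−1.96) and *Tuba8* (−1.33), taken up after their values were seen, were among the other called members. The count was 6, 4 and 6 without control 1, 2 and 3, 5, 13 and 4 without p53mut 1, 2 and 3, 5 without each NrasG12D mouse, and 9, 13, 18 and 13 without NPmut 1, 2, 3 and 4. On all mice edgeR had 23 negative at unadjusted p under 0.05, and DESeq2 and limma-trend called 19 and 12, all negative.

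**Figure D3:**
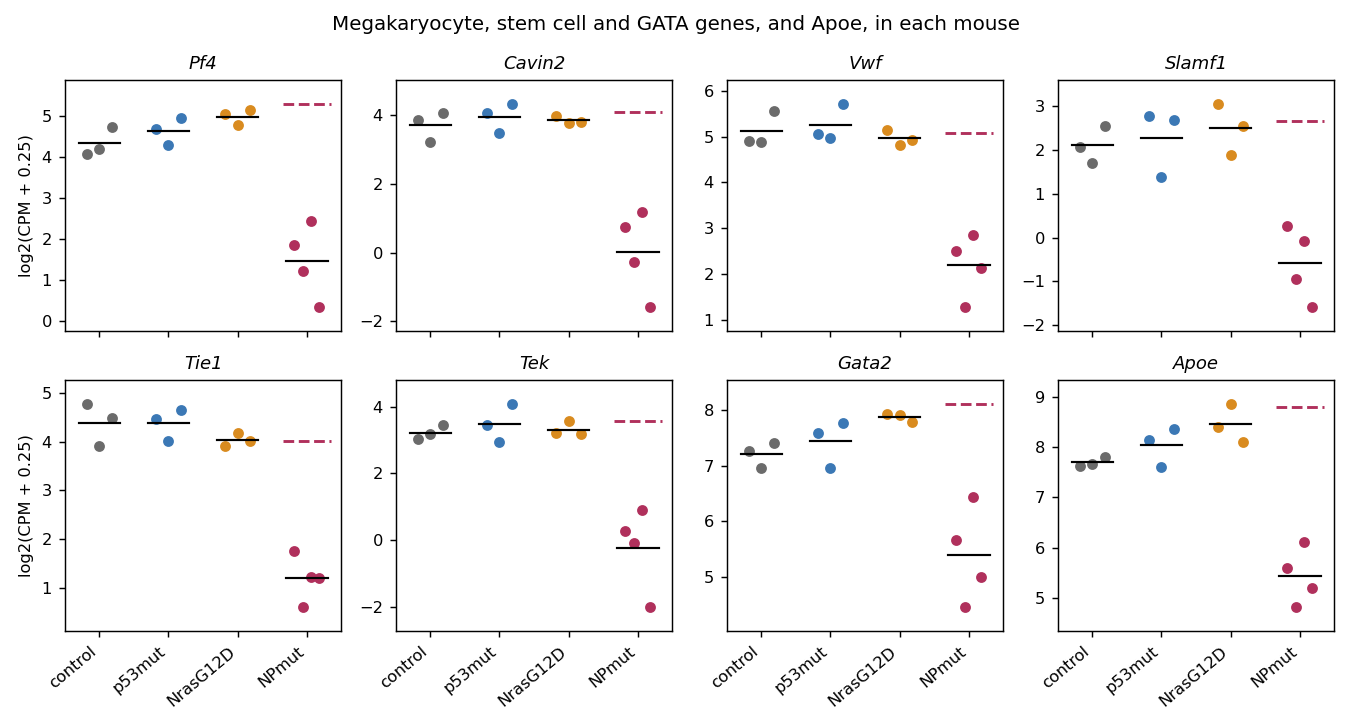
log2 (CPM + 0.25) of *Pf4*, *Cavin2*, *Vwf*, *Slamf1*, *Tie1*, *Tek*, *Gata2* and *Apoe* (y) by genotype (x), with each point a mouse and black lines group means. The dashed line in the NPmut column is the additive expectation; NPmut means lie under it for each gene.

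Among GATA factors and their partners, calls were few and depended on single mice. *Gata2*, which encodes a regulator of HSCs and mast cells, and *Cbfa2t3*, a corepressor of the GATA complex, were the called members of 16 tested (both negative, 0.938% of all genes), and the median term was −0.74, with 14 terms under 0. *Gata2* (ENSMUSG00000015053, chr6:88193891-88207032, plus strand) was at 154, 123 and 171 CPM in control, 192, 125 and 217 in p53mut, 244, 241 and 219 in NrasG12D, and 50.5, 21.8, 86.7 and 31.9 in NPmut mice. NPmut mice were under all others and NrasG12D mice over all others. Its term was −2.55 (standard error 0.54, adjusted p 0.0387). It was called without p53mut 2, NPmut 2 or NPmut 3 and missed the threshold without each of the other 10 mice, at adjusted p of 0.0647 to 0.126.

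*Cbfa2t3* had a term of −1.38 (adjusted p 0.018) and was missed without control 2, p53mut 1, p53mut 3 and NrasG12D 2, at adjusted p 0.0711, 0.0592, 0.0526 and 0.0519. The GATA complex count was 1, 0 and 1 without control 1, 2 and 3, 0, 2 and 0 without p53mut 1, 2 and 3, 1, 0 and 1 without NrasG12D 1, 2 and 3, and 1, 4, 4 and 1 without NPmut 1, 2, 3 and 4. Where it was 0 the terms stayed negative; in the fit on all mice, edgeR had 10 negative at unadjusted p under 0.05, DESeq2 called 3 and limma-trend 2. *Gata1* had an uncalled term of −1.37 (adjusted p 0.306).

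Erythroid genes varied between NPmut mice without a call. By mouse the list median was −1.36, −2.45, −0.49 and −0.21 in NPmut, and NPmut 3 and 4 overlapped NrasG12D and control mice. Of 25 tested, 0 were called by edgeR, DESeq2 or limma-trend, with 1 positive at unadjusted p under 0.05; the median term was −0.46 (−0.8072 without NPmut 4 and −0.2226 without NPmut 2), and the median differences were −0.03 in p53mut, −0.41 in NrasG12D and −1.02 in NPmut. Mast cell and basophil genes were called at *Slc18a2*, a vesicle transporter of amines (−3.41, adjusted p 0.0417), and *Clnk*, an adaptor of immune receptors (−1.9998, adjusted p 0.0358), of 13 tested of 21 (both negative, 0.938% of all genes). The term of *Clnk* was also the median of the list. *Slc18a2* was called without p53mut 2 or NPmut 3 and missed the threshold without each of the other 11 mice, at 0.0525 to 0.125. *Clnk* was called without p53mut 2, NrasG12D 2 or any NPmut mouse, and missed it without the other 7 at 0.0523 to 0.122. The count was 3 without p53mut 2, 1 without NrasG12D 2, 2, 2, 5 and 1 without NPmut 1 to 4, and 0 without the others; with all mice edgeR had 10 negative at unadjusted p under 0.05, and DESeq2 and limma-trend called 6 and 2.

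HSC genes followed the megakaryocyte genes, with which they share *Slamf1* and *Vwf*. *Tek*, the TIE2 receptor of HSCs and endothelium (−3.84, adjusted p 0.018), *Slamf1* and *Vwf* were called of 29 tested of 31 (all negative, 0.938% of all genes), with a median term of −1.38 and 27 terms under 0. *Tie1* (ENSMUSG00000033191, chr4:118471191-118490061, minus strand), a receptor that acts with TIE2, was at 14.8 to 27 CPM in control, 15.9 to 24.8 in p53mut, 14.7 to 17.9 in NrasG12D, and 3.13, 1.27, 2.09 and 2.04 in NPmut mice, for a term of −2.89 (standard error 0.38, adjusted p 0.00263). *Tek* missed the threshold without control 1, control 2, p53mut 3 and NrasG12D 2, at adjusted p 0.0536, 0.0711, 0.0594 and 0.051; *Slamf1* missed it at 0.0559 to 0.0929 without the 6 mice given above. The HSC count was 1, 1 and 3 without control 1, 2 and 3, 2, 7 and 1 without p53mut 1, 2 and 3, 2 without each NrasG12D mouse, and 3, 3, 9 and 3 without NPmut 1 to 4. On all mice edgeR had 20 negative and 1 positive at unadjusted p under 0.05. DESeq2 and limma-trend called 12 and 4, all negative.

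Marker sums place these lists among cell types. The 5 megakaryocyte markers, all found, with *Itga2b* the largest part, summed to 23.05, 10.91, 54.27 and 16.46 CPM in NPmut mice against 82.72 to 168.8 in all others, and the 6 monocyte markers, all found, with *Ly6c2* the largest part, to 779.9, 1059, 585 and 526.1 against 184.7 to 381.4. Mast cell markers averaged 48.1, 53.6, 81.5 and 33.9 CPM in control, p53mut, NrasG12D and NPmut, and erythroid markers 18.96, 19.7, 10.1 and 11.2. Progenitor markers, mostly *Mpo*, averaged 13239, 13148, 12887 and 15351 CPM, and B, T and NK cell markers stayed at 60.8 or less in each group. Stromal and endothelial markers, almost all *Pecam1*, averaged 95.7, 95.5, 112 and 140 CPM. Other members of that sum went the other way. *Col1a2* was at 1.49 to 6.57 CPM in control and 0.170 to 0.858 in NPmut mice, and *Cxcl12* at 1.78 to 3.16 and 0.424 to 1.07. *Lepr*, *Cdh5* and *Col1a1* were at 0.865 CPM or less in each library. Fewer cells of a type and less RNA per cell cannot be told apart.

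*Apoe*, a lipid carrier made by macrophages and by early HSPCs, was the called gene of the monocyte list with a negative term. *Apoe* (ENSMUSG00000002985, chr7:19696109-19699188, minus strand) was at 197, 203 and 223 CPM in control, 283, 194 and 328 in p53mut, 340, 462 and 275 in NrasG12D, and 48.1, 28.1, 69.1 and 36.6 in NPmut mice, so that NPmut mice were under all others. Its term was −3.35 (standard error 0.39, adjusted p 0.00256), and its mean RPKM was 97.1, 126, 168 and 21.3.

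Most monocyte genes lay above the additive expectation, although few were called. *Irf8* encodes a factor that sets monocyte and dendritic fate, *F13a1* the clotting factor XIII of monocytes, and *Ccr2* the receptor that brings monocytes out of marrow. These genes were nearer control in both single mutants than in NPmut mice, where they were high. They were the 3 called positive of 28 tested of 30, against 0.405% of all genes, with a median term of 1.06, and 23 terms were above 0 and 5 below it. The median differences were 0.17 in p53mut, 0.03 in NrasG12D and 1.33 in NPmut.

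*Irf8* (ENSMUSG00000041515, chr8:120736358-120756694, plus strand) was at 130, 141 and 134 CPM in control, 109, 188 and 90.5 in p53mut, 143, 196 and 202 in NrasG12D, and 490, 616, 390 and 445 in NPmut mice. *Ccr2* was at 40.4 to 58.9 CPM in control, 37.3 to 52.8 in p53mut, 45.7 to 49.3 in NrasG12D, and 155, 187, 108 and 77.6 in NPmut mice. NPmut mice were above all others for both, and for *Irf8* each NrasG12D mouse also lay above each control mouse. The terms were 1.49 for *Irf8* (adjusted p 0.0376), 1.46 for *F13a1* (adjusted p 0.0377) and 1.53 for *Ccr2* (adjusted p 0.048), and mean RPKM in NPmut was 68.8 for *Irf8* and 153 for *F13a1*. *Irf8* was called without p53mut 2 or NPmut 3 and missed the threshold without each of the other 11 mice, at 0.051 to 0.115. *F13a1* was called without p53mut 2, NrasG12D 3, NPmut 3 or NPmut 4 and missed it without the other 9 at 0.06 to 0.123, and *Ccr2* was called without NPmut 3 or NPmut 4 and missed it without the other 11 at 0.056 to 0.137. The positive monocyte count was 7 without p53mut 2, 6 without NPmut 3, 2 without NPmut 4, 1 without NrasG12D 3 and 0 without the others; with all mice edgeR had 17 positive at unadjusted p under 0.05, and DESeq2 and limma-trend called 8 and 3.

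Dendritic cell genes were called at *Irf8* and *Id2*, an inhibitor of E proteins needed for dendritic cells (2.03, adjusted p 0.0417), of 17 tested of 20 (both positive, 0.405% of all genes), with a median term of 1.46 that became 0.4586 without NPmut 1 and 0.486 without NPmut 3. *Id2* was called without control 3, p53mut 2, NPmut 2, NPmut 3 or NPmut 4 and missed the threshold without the other 8 mice, at adjusted p 0.0619 to 0.13. The count was 2 without p53mut 2 or NPmut 3, 1 without control 3, NPmut 2 or NPmut 4, and 0 without the others; with all mice edgeR had 6 positive at unadjusted p under 0.05, and DESeq2 and limma-trend called 3 and 2.

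Toll-like receptor genes were raised at *Irf5*, a factor that drives inflammatory cytokines, and *Unc93b1*, which carries the nucleic acid receptors to endosomes. *Irf5* was at 9.28 to 11 CPM in control, 8.19, 17.3 and 11.1 in p53mut, 14.1 to 14.3 in NrasG12D, and 43.7, 63.7, 39.8 and 41.4 in NPmut mice, for a term of 1.49 (adjusted p 0.0361). *Unc93b1* was at 315, 447, 288 and 281 CPM in NPmut mice and 151 or less in the others, for a term of 1.30 (adjusted p 0.0376). Of 26 tested, these 2 were called positive (0.405% of all genes), with a median term of 0.69 that became 0.3676 without p53mut 1. Both were called without p53mut 2, NPmut 2, NPmut 3 or NPmut 4 and missed the threshold without the other 9 mice, at 0.0517 to 0.111 for *Irf5* and 0.056 to 0.122 for *Unc93b1*. The list count was 4 without p53mut 2 or NPmut 3, 2 without NPmut 2 or NPmut 4, and 0 without the others; with all mice edgeR had 8 positive and 1 negative at unadjusted p under 0.05, and DESeq2 and limma-trend called 4 and 2.

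NF-kB genes rose at *Nfkbia*, which encodes the inhibitor IkBa and is itself an NF-kB target, and at *Tnf*. *Nfkbia* (ENSMUSG00000021025, chr12:55489410-55492647, minus strand) was at 16.6, 17 and 12.2 CPM in control, 18.8, 22.6 and 20.2 in p53mut, 19.3, 24 and 16.8 in NrasG12D, and 57.6, 74.7, 43.3 and 67.3 in NPmut mice. *Tnf* (ENSMUSG00000024401, chr17:35199381-35202007, minus strand) was at 2.34 to 3.65 CPM in control, 1.56 to 2.44 in p53mut, 2.62 to 3.94 in NrasG12D, and 21.6, 16.6, 5.63 and 17.8 in NPmut mice. NPmut mice were above all others for both, with NPmut 3 the lowest of them. The terms were 1.17 for *Nfkbia* (adjusted p 0.0464) and 2.78 for *Tnf* (adjusted p 0.0247), and mean RPKM of *Tnf* was 1.77, 1.17, 2.06 and 9.4.

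*Nfkbia* was called without p53mut 2, NPmut 2 or NPmut 3 and missed the threshold without the other 10 mice, at adjusted p 0.0523 to 0.133. *Tnf* was called without control 3, p53mut 2 or any NPmut mouse and missed it without the other 7, at 0.0536 to 0.085. Of 26 NF-kB genes tested, these 2 were called positive (0.405% of all genes), the median term was 0.88 (0.4859 without NPmut 1), and 23 terms were above 0. By mouse the list median was 1.65, 1.17, 0.196 and 1.498 in NPmut 1 to 4, and NPmut 3 lay inside the NrasG12D range of 0.0768 to 0.303. The count was 7 without NPmut 3, 2 without p53mut 2 or NPmut 2, 1 without control 3, NPmut 1 or NPmut 4, and 0 without the others; with all mice edgeR had 11 positive and 1 negative at unadjusted p under 0.05, and DESeq2 and limma-trend called 6 and 2.

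**Figure D4:**
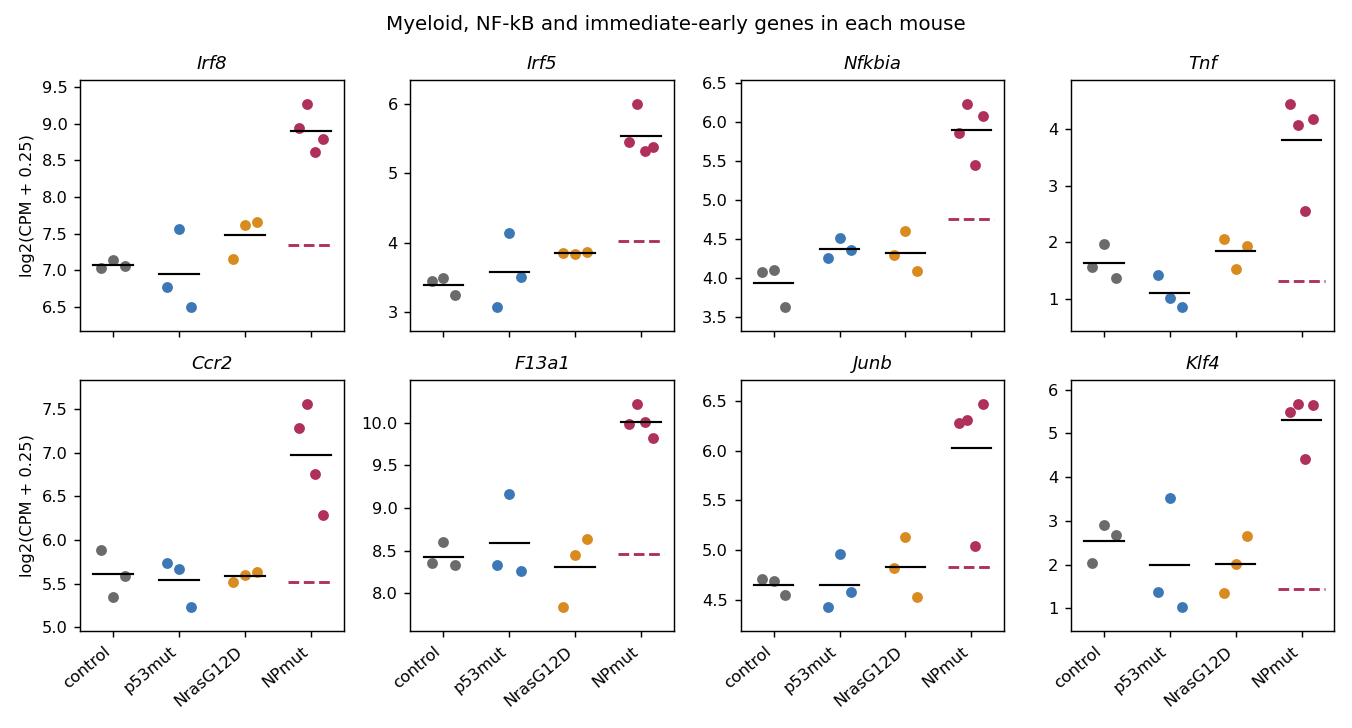
log2 (CPM + 0.25) of *Irf8*, *Irf5*, *Nfkbia*, *Tnf*, *Ccr2*, *F13a1*, *Junb* and *Klf4* (y) by genotype (x), with each point a mouse and black lines group means. The dashed line in the NPmut column is the additive expectation; NPmut 3 is the lowest NPmut mouse for *Nfkbia*, *Tnf*, *Junb* and *Klf4*.

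Immediate-early genes had a high median term without a call, and NPmut 3 stood apart from the other NPmut mice. *Junb*, an AP-1 subunit, was at 77.6, 78.8, 32.5 and 88.2 CPM in NPmut mice and 21.3 to 34.8 in all others, and *Klf4*, a factor of monocyte differentiation, at 44.4, 50.4, 20.9 and 50 in NPmut mice. The terms were 1.258 for *Junb* (adjusted p 0.125) and 3.53 for *Klf4* (adjusted p 0.0603). Of 25 tested, 0 were called by edgeR, with 15 positive and 1 negative at unadjusted p under 0.05, and DESeq2 and limma-trend called 7 and 1; the median term was 1.41, with 24 terms above 0. By mouse, the list median over control was 2.24, 1.47, 0.07 and 2.22 in NPmut 1 to 4. Without NPmut 3, 15 genes were called, *Junb* (adjusted p 0.00441), *Klf4* (0.026) and *Dusp1* (0.0475) passed, and without p53mut 2 the count was 2 and *Klf4* passed at 0.00274. Counting every alternative tried, *Klf4* passed in 6, *Junb* in 3 and *Dusp1* in 1. These genes also respond to the handling of cells, which was not tested.

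Inflammasome genes were called at *P2rx7*, the ATP receptor that triggers the NLRP3 inflammasome, which was at 33.6, 24, 31.4 and 23.9 CPM in NPmut mice against 10.1 to 12.2 in NrasG12D and 5.54 to 8.92 in control and p53mut. Its term was 1.28 (adjusted p 0.0313), the only call of 14 tested (positive, 0.405% of all genes), and the median term was 0.50. *P2rx7* was called without p53mut 2, NPmut 2, NPmut 3 or NPmut 4 and missed the threshold without the other 9 mice at 0.056 to 0.0982. The positive count was 2 without p53mut 2, 3 without NPmut 3, 1 without NPmut 2 or NPmut 4 and 0 without the others, and 1 negative gene was called without p53mut 2 or NPmut 3; with all mice edgeR had 6 positive and 1 negative at unadjusted p under 0.05, DESeq2 called 3 and 1, and limma-trend 1 and 1.

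MHC class II genes had a call at *Ifi30* and were otherwise unresolved, with 0 of 12 intervals inside −1 to 1. *Ifi30*, a lysosomal thiol reductase annotated as a processed transcript, was the only call of 12 (1.19, adjusted p 0.0376; 0.405% of all genes were positive), and the median differences were 0.29 in p53mut, 0.85 in NrasG12D and 1.45 in NPmut, with a median term of 0.54. *Ifi30* was at 34.4, 55.2, 33.8 and 31.4 CPM in NPmut mice and 10.5 to 16.4 in all others. It was called without NPmut 1, NPmut 3 or NPmut 4 and missed the threshold without the other 10 mice at adjusted p up to 0.125, which left 0 called; with all mice edgeR had 2 positive at unadjusted p under 0.05, and DESeq2 and limma-trend called 1 each.

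Neutrophil granule genes had a positive median term without a call, and control 1 stood apart from the other control mice. By mouse the list median was 0.42, −0.28 and −0.22 in control and −0.20, −0.09 and −0.16 in p53mut, so control 1 raised the control mean. The median differences were −0.30 in p53mut, −0.61 in NrasG12D and 0.30 in NPmut, the median term was 1.12, and all 22 terms were above 0. Of 22 tested, 0 were called by edgeR, with 9 positive at unadjusted p under 0.05, and DESeq2 and limma-trend called 3 and 0. Without p53mut 2, 2 were called, and without NPmut 1 and NPmut 3, 1 each. Neutrophil markers, mostly *S100a9*, summed to 216.6, 59.5 and 67.02 CPM in control and 90.72, 192.1, 19.68 and 208 in NPmut mice. Genes of IL-6, JAK and STAT3 signaling were near additive: of 19 tested, 0 were called by edgeR (2 positive and 4 negative at unadjusted p under 0.05; DESeq2 1 positive, limma-trend 0), 13 intervals lay inside −1 to 1, and the median term was −0.01. Without NPmut 3, 1 was called positive.

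Among RAS pathway genes the call was at *Rasa4*, a calcium-activated RAS GTPase activator (1.07, adjusted p 0.0376). *Rasa4* was at 49.1, 48.9 and 60.8 CPM in control, 44.2, 70.1 and 43 in p53mut, 79.1, 68.1 and 72.6 in NrasG12D, and 152, 166, 129 and 161 in NPmut mice, which lay above all others. It was the call among 27 regulators of RAS exchange and hydrolysis (0.405% of all genes were positive), and 15 intervals lay inside −1 to 1. The median term was −0.12, and ran from −0.156 to −0.0464 with a mouse left out. *Rasa4* was called without p53mut 2, NPmut 2 or NPmut 3 and missed the threshold without the other 10 mice at 0.0542 to 0.119, which left 0 positive; with all mice edgeR had 6 positive and 2 negative at unadjusted p under 0.05, and DESeq2 and limma-trend called 1 of each sign. *Dab2ip* was just short of a call on all mice (−1.45, adjusted p 0.0519) and passed in 7 settings: without p53mut 2, NPmut 2 and NPmut 3 (adjusted p 0.0391, 0.0229 and 0.0184), with DESeq2 (0.00552), with limma-trend (0.0497), with sex in the fit (0.0254) and without a filter (1.71e-06). Of 22 genes of ERK output, 0 were called by edgeR (2 positive and 5 negative at unadjusted p under 0.05; DESeq2 1 negative, limma-trend 0), with a median term of 0.18 (−0.0516 without control 2) and only 3 intervals inside −1 to 1; without p53mut 2 and NPmut 2 there was 1 negative call, and without NPmut 3 there were 2 of each sign. *Spry4* had a term of −1.28 (adjusted p 0.306), *Spry2* 0.42 (adjusted p 0.474), *Nf1* −0.16 (adjusted p 0.842) and *Ptpn11* −0.27 (adjusted p 0.353).

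Cytokine and tyrosine kinase receptor genes were called at *Tek* and *Tie1* only, of 33 tested (both negative, 0.938% of all genes). The median term was 0.08, and ran from −0.0031 to 0.223 with a mouse left out. *Csf1r*, the receptor of macrophage growth, had a term of 0.99 (adjusted p 0.181) and passed without p53mut 2 at 0.0117. Counting every alternative tried, it passed in 2. *Tek* missed the threshold without control 1, control 2, p53mut 3 and NrasG12D 2, at adjusted p 0.0536, 0.0711, 0.0594 and 0.051, which left 1 negative call, and there were 3 without NPmut 1 and without NPmut 3. Without p53mut 2 and without NPmut 3, 1 was called positive.

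Targets of p53 were spread around additivity. *Ptpn14*, a phosphatase that restrains YAP (−3.09, adjusted p 0.0203), and *Trp53inp1*, which promotes p53 activity and autophagy (−1.54, adjusted p 0.0361), were called negative, and *Cd80* positive, of 30 tested (0.938% and 0.405% of all genes); the median term was −0.16 (−0.33 without control 3) and 12 intervals lay inside −1 to 1. *Cd80* was at 0.402, 0.68 and 0.357 CPM in control mice, 0 in p53mut 1 and 3 and in NrasG12D 2 and 3, and 1.16, 0.771, 0.268 and 0.17 in NPmut mice, so no fold is given. *Ptpn14* missed the threshold without control 1, control 2, p53mut 3 and each NrasG12D mouse, at 0.051 to 0.0774. *Trp53inp1* was called without p53mut 2, NPmut 2 or NPmut 3 and missed it without the other 10 mice at 0.0522 to 0.124, and *Cd80* was called without p53mut 2, NPmut 3 or NPmut 4 of 11 fits that kept it, and missed it otherwise at 0.0608 to 0.101. Positive calls were 4 without NPmut 3, 1 without p53mut 2 or NPmut 4 and 0 without the others; negative calls were 2 without p53mut 2, NPmut 2 or NPmut 3, 1 without control 3, p53mut 1, NPmut 1 or NPmut 4, and 0 without the others. With all mice edgeR had 4 and 6 at unadjusted p under 0.05, DESeq2 called 2 and 2, and limma-trend 1 and 2.

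Adhesion and matrix genes showed single calls in both directions. *Itga1*, a collagen receptor subunit, rose (2.33, adjusted p 0.0376), at 112, 83.5, 76.1 and 109 CPM in NPmut mice against 11.8 to 30.1 in all others. In contrast *Selp* and *Itga2*, a collagen receptor subunit of platelets (−2.08, adjusted p 0.0376), fell. Of 31 adhesion genes tested these 3 were called (0.405% of all genes were positive and 0.938% negative), 13 intervals lay inside −1 to 1, and the median term was 0.01. *Timp3* (−2.98, adjusted p 0.0203) and *Timp2* (−1.46, adjusted p 0.0483), inhibitors of matrix proteases, were called of 19 matrix genes (both negative, 0.938% of all genes), with a median term of −0.81. *Itga1* was called without control 1, p53mut 2 or NPmut 3 (0.0531 to 0.115 without the others, 0.105 with the replicate number in the fit), *Itga2* without control 1, p53mut 2 or NPmut 1 to 3 (0.0538 to 0.125), and *Timp2* without p53mut 2, NPmut 2 or NPmut 3 (0.0533 to 0.144, and 0.0503 with the replicate number). *Timp3* missed the threshold without control 1, control 2, p53mut 3, NrasG12D 2 and NrasG12D 3, at 0.0576, 0.0774, 0.0613, 0.051 and 0.0589, and without NPmut 3 a matrix gene was called positive. On all mice edgeR had 4 adhesion genes positive and 10 negative at unadjusted p under 0.05, and DESeq2 called 1 positive and 5 negative.

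Among stromal and endothelial genes, *Lpl*, a lipoprotein lipase (3.36, adjusted p 0.018), and *Tie1* were called of 13 (0.405% of all genes were positive and 0.938% negative), with a median term of −0.74 (−0.4294 without NPmut 4) and a median NPmut difference of −1.47; *Lpl* missed the threshold without control 2, p53mut 3, NrasG12D 1 and NrasG12D 3, at 0.063, 0.0594, 0.0551 and 0.051. That list had 2 positive calls without NPmut 3 and 2 negative without NPmut 1, and DESeq2 called 3 of each sign on all mice. Of 21 lymphoid priming genes, *Cd27*, a TNF receptor of lymphoid progenitors, was called (−1.31, adjusted p 0.0444; 0.938% of all genes were negative), with a list median of 0.04 that became −0.222 without NPmut 3 and 0.2557 without NrasG12D 2. *Cd27* was called without p53mut 2, NPmut 3 or NPmut 4 and missed it without the other 10 mice at 0.057 to 0.139. Of 7 B cell genes tested of 15 and 9 T and NK cell genes tested of 20, 0 were called by edgeR, with 1 positive B cell gene and 1 negative T and NK cell gene at unadjusted p under 0.05; DESeq2 called 0 and 1 and limma-trend 0 and 0. The B cell median term was 1.37, with 6 of 7 above 0 and a median NrasG12D difference of −2.09, and the T and NK cell median was 0.15 (−0.5001 without NPmut 1). Without NPmut 2 and without NPmut 3, 1 T and NK cell gene was called negative.

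Proliferation genes lay within 1 of the additive expectation by their intervals, and 22 of 29 terms were above 0. *Mki67* had a term of −0.05 and *Top2a* −0.10, and the list ran from −0.23 (*Cenpe*) to 0.61 (*E2f1*), genes taken up after their values were seen. Of 29 tested, 0 were called by edgeR, DESeq2 or limma-trend, 2 were positive at unadjusted p under 0.05, and all 29 intervals lay inside −1 to 1. Of 22 unfolded protein and heat shock genes, *Hsph1*, an HSP110 chaperone, was called (−1.71, adjusted p 0.0376; 0.938% of all genes were negative). It was at 237, 127 and 138 CPM in control, 223, 213 and 166 in p53mut, 114, 264 and 186 in NrasG12D, and 68.6, 75.3, 67.6 and 63.4 in NPmut mice, and it was called without control 1, NrasG12D 1 or NPmut 3 but missed the threshold without the other 10 mice at 0.0521 to 0.122, and with the replicate number in the fit at 0.101. Without NPmut 3, 1 heat shock or unfolded protein gene was called positive.

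Genes that went further in the combination than in a single mutant of the same direction were few. *Grb10* (ENSMUSG00000020176, chr11:11930508-12038683, minus strand), an imprinted adaptor that restrains insulin and KIT signaling, was at 45.8, 55.2 and 60.8 CPM in control, 50, 45 and 63.7 in p53mut, 31.5, 32.8 and 26.6 in NrasG12D, and 6.22, 3.36, 7.02 and 3.05 in NPmut mice. NPmut mice were the lowest and NrasG12D mice the next lowest, with no overlap. Its term was −2.59 (standard error 0.34, adjusted p 0.0027), beyond an uncalled −0.83 in NrasG12D (adjusted p 0.255). *Gdf3*, a TGF-beta ligand (−2.75, adjusted p 0.0173), missed the threshold only without p53mut 3 (0.0568), and *Phldb2*, a cortical anchor protein (−2.23, adjusted p 0.0136), only without control 2 (0.0536). *Fgd2*, a CDC42 exchange factor of phagocytes (1.02, adjusted p 0.0205), was called without control 3, p53mut 2, NrasG12D 2, NPmut 1, NPmut 3 or NPmut 4 and missed it without the other 7 mice at adjusted p up to 0.0733.

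In other genes a single-mutant difference was absent from the combination. *Lair1* (ENSMUSG00000055541, chr7:4003402-4063204, minus strand), an inhibitory collagen receptor of leukocytes, was at 42.4, 35.8 and 40.5 CPM in control, 29.2, 30.4 and 23.7 in p53mut, 30, 22.1 and 25.8 in NrasG12D, and 51, 51.6, 48.2 and 55.7 in NPmut mice. Both single mutants lay under control and NPmut over it, without overlap, for a term of 1.5002 (standard error 0.19, adjusted p 0.00256). *Fbxw10*, an F-box protein (2.18, adjusted p 0.0344), *Slc16a3*, the lactate exporter MCT4 (1.46, adjusted p 0.0483), and the miRNA gene *Gm24187* (1.264, adjusted p 0.0379) were called without p53mut 2, NPmut 2 or NPmut 3. Without the other 10 mice they missed the threshold, at 0.05 to 0.0925, 0.0532 to 0.143 and 0.0511 to 0.117. In the other direction, *Banp*, a chromatin protein (−1.78, adjusted p 0.0444), was called without p53mut 3, NPmut 3 or NPmut 4 (0.0513 to 0.132 without the others, 0.0503 with the replicate number in the fit). *Arrdc4*, an arrestin that limits glucose uptake (−1.71, adjusted p 0.0298), was called without control 3, p53mut 2, NrasG12D 3 or NPmut 2 to 4 (0.056 to 0.115 without the others).

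At a mean log2 CPM of at least 1, the 5 largest positive terms belonged to the opposite pattern. *Glt1d1*, a glycosyltransferase (3.56, adjusted p 0.0313), the pseudogene *I830127L07Rik* (3.40, adjusted p 0.00842) and *Dgat2*, an enzyme of triglyceride synthesis (3.05, adjusted p 0.0185), were under control in NrasG12D and over it in NPmut, by −1.78 in NrasG12D for *Dgat2* (uncalled, adjusted p 0.175). *Dgat2* missed the threshold without control 1, control 2 and p53mut 3, at 0.0521, 0.0607 and 0.0594, and *Glt1d1* was called without p53mut 2, NPmut 2, NPmut 3 or NPmut 4 (0.051 to 0.105 without the others). *Gm17590*, an antisense RNA (−3.69, adjusted p 0.0178), missed it without control 2, control 3, p53mut 1 and p53mut 3, at 0.0711, 0.0532, 0.0503 and 0.0575.

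Raised in NPmut alone were *Klrk1*, the NKG2D receptor (2.71, adjusted p 0.0262), *Arhgap24*, a RAC GTPase activator (2.41, adjusted p 0.0361), and *AB124611*, a membrane protein of leukocytes (2.36, adjusted p 0.0201). *Klrk1* was called without control 1, p53mut 2 or any NPmut mouse and missed the threshold without the other 7 at 0.0545 to 0.0929. *Arhgap24* was called without p53mut 2, NPmut 2 or NPmut 3 (0.0538 to 0.109 without the others). *AB124611* missed it without control 2, p53mut 1, p53mut 3, NrasG12D 1 and NrasG12D 2, at 0.0711, 0.0642, 0.0712, 0.0632 and 0.0519.

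Among called genes outside these patterns were *Dapp1*, a phosphoinositide-binding adaptor of immune cells (−1.46, adjusted p 0.00569), and *Clstn1*, a kinesin cargo adaptor (−1.44, adjusted p 0.0483). The processed pseudogene *AC165960.1* had a larger term (−3.67, adjusted p 0.0483), but its NPmut mean lay over control. Its mean was 1.57, 13.2, 4.17 and 2.69 CPM in control, p53mut, NrasG12D and NPmut. On the positive side were *Ccdc122* (1.54, adjusted p 0.0376), *Sh3tc1*, an SH3-domain protein (1.39, adjusted p 0.0205), the pseudogene *Nxpe1-ps* (1.39, adjusted p 0.0465) and *Gsr*, glutathione reductase (1.34, adjusted p 0.0417). *Dapp1* was called without each mouse. *Clstn1* was called without p53mut 2, NPmut 2 or NPmut 3 (0.071 to 0.135 without the others), *AC165960.1* without NrasG12D 2, NPmut 2 or NPmut 3 (0.0677 to 0.139, and 0.117 with the replicate number in the fit), *Ccdc122* without control 3, p53mut 2 or NPmut 1 to 3 (0.0542 to 0.123), *Nxpe1-ps* without p53mut 2 or NPmut 3 (0.0529 to 0.132, and 0.0575 with the replicate number), and *Gsr* without p53mut 2, NPmut 1 or NPmut 3 (0.0533 to 0.126). *Sh3tc1* missed the threshold without control 2, control 3, p53mut 1, p53mut 3, NrasG12D 1 and NrasG12D 3, at 0.0501 to 0.0717.

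Genes that the study itself named were counted as a list of their own. They were picked from these samples and are not independent of them. The study compared NPmut with control, with qRT-PCR for several genes, and did not use an interaction term. Its genes were given as raised, lowered or unchanged, and the list median mixes them. An uncalled term here is a different measure from the study's comparison. *Irf8*, *Irf5* and *Nfkbia* were called positive and *Gata2* negative, of 34 tested of 35 (0.405% and 0.938% of all genes), with a median term of 0.46 that became 0.1801 without control 2. Regulators and receptors on it were uncalled: *Spi1* 0.63 (adjusted p 0.311), *Sos1* −0.70 (0.0669), *Sos2* −0.11 (0.815), *Rasgrp2* 0.67 (0.0599), *Rasgrp4* 1.48 (0.161), *Cbl* 0.16 (0.783), *Spry1* 0.21 (0.879), *Flt3* −0.51 (0.625) and *Dusp1* 1.44 (0.344). *Rasgrp1* and *Rasgrp3* had only 1 to 20 and 0 to 32 counts a library and were uncalled. *Cd74*, the invariant chain, was at 0.91 (0.489), *Rela* at −0.42 (0.139), *Nfkb1* at 0.04 (0.924), *Il6ra* at 0.33 (0.527), *Il6st* at 0.71 (0.153), *Met* at 0.75 (0.485), *Ptk7* at 0.81 (0.315) and *Tlr1* at 1.28 (0.396). *Cd74* passed in 1 of the alternatives tried. *Trp53* and *Nras*, which carry the alleles, had terms of −0.54 (0.0863) and −0.15 (0.65). The calls were 5 positive and 2 negative without p53mut 2, 2 and 2 without NPmut 2, 6 and 2 without NPmut 3 and 1 positive without NPmut 4, and none without the other mice. DESeq2 called 5 and 2 on all mice, and limma-trend 4 and 2.

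Side by side, interferon-stimulated genes and GTPases had list medians over control in NrasG12D and under it in NPmut mice, while megakaryocyte and HSC medians were under control, and monocyte medians over it, in NPmut mice beyond the range of all others. Proliferation, IL-6 signaling, RAS regulators and adhesion stayed near the additive expectation by their medians. Single members of 2 of these lists did not. Adhesion terms ran from −2.84 to 2.33, with 13 of 31 intervals inside −1 to 1. RAS regulators ran from −1.45 to 3.05, with 15 of 27 inside.

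**Figure D5:**
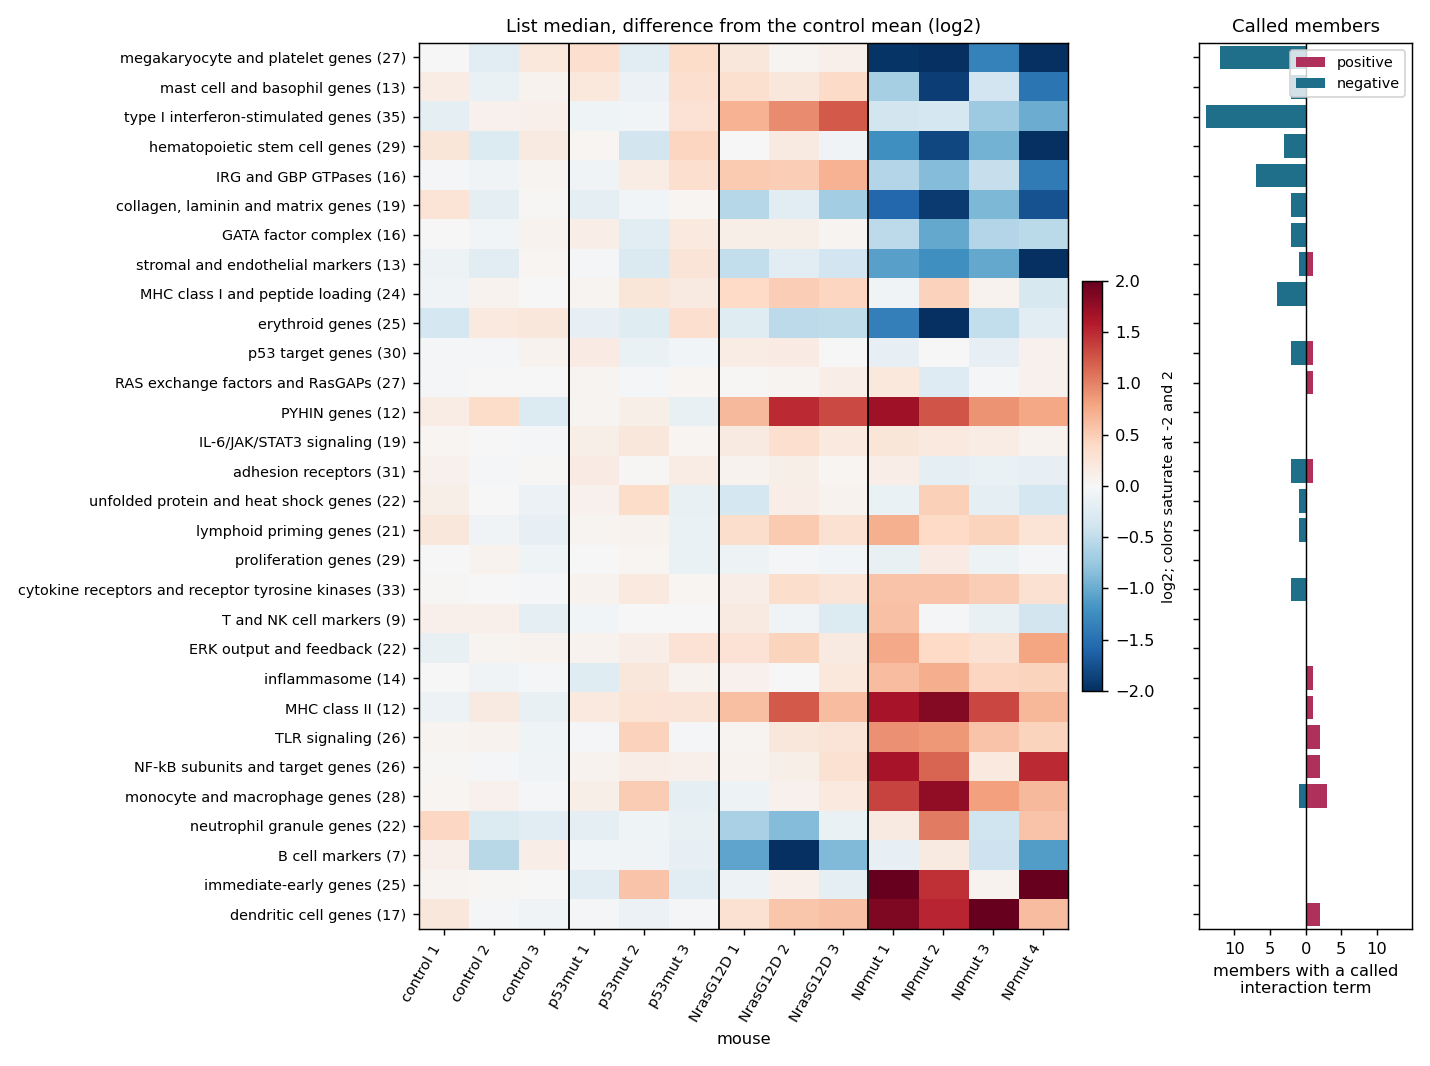
Heat map of the median log2 difference from the control mean of the genes in each of 30 lists (y) for each of 13 mice (x), with colors at their limit at −2 and 2. Bars at the side count the called members of each list by direction.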

How the data were processed

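The counts per gene were deposited by the authors, and each of the 13 columns matched 1 sample, with 0 columns left without a sample. The submitters' processing notes give STAR 2.6.1d, R 3.6.1, DESeq2 1.26.0 and genome GRCm38.p6; the counting program and strand setting are not given in the sources used here. Gene names and types came from GENCODE M21. Of 54838 genes, filterByExpr kept 17795. The fit used R 4.3.3 and edgeR 4.0.16 (TMM scaling, robust quasi-likelihood, a mean for each of the 4 groups), with Benjamini-Hochberg adjusted p under 0.05 and a term of at least 1 for a call. It was tried on simulated data before use. Alternatives were other scalings, DESeq2 1.42.0, limma-trend (limma 3.58.1), other filters, replicate number, sex, background reads, and each mouse left out.

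Genes were named by rule: the 5 largest terms of each direction among called genes with mean log2 CPM of at least 1, the 4 largest of each pattern and direction, up to 4 called genes of each list, the whole of any group of 5 or fewer, and the genes named by the study. Samples and gene lists were chosen with earlier results from these data known.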

Additional observations from a re-analysis of the deposited data

Results flagged for a closer look

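For each named gene, an NPmut mouse that stood far from the other 3 was listed. Of 101 named genes, 9 met the rule, and about 1 in 20 would be met by chance.

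NPmut 2 was high for the pseudogene *AC165960.1* at 5.48 CPM (others 1.716 to 1.781), *Phldb2* at 1.35 (others 0.7634 to 0.8591), *Ifi30* at 55.2 (others 31.39 to 34.37) and *Irf5* at 63.7 (others 39.79 to 43.66). It was low for *Cbfa2t3* at 67.8 (others 121.0 to 125.2) and *Spry4* at 1.85 (others 4.29 to 4.75). NPmut 3 was high for *Timp2* at 6.54 (others 4.127 to 4.496) and *Ptk7* at 24.8 (others 17.9 to 18.85), and NPmut 4 for *Slc16a3* at 7.29 (others 6.317 to 6.381).

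The counts of 72 positive and 167 negative genes were also listed. What was tested there is the difference itself, as the interaction term in a single fit of the 4 groups, and not a comparison of separate gene counts.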

How the results depend on the processing

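The positive count of 72 became 256 with DESeq2, 308 without a filter and 135 with a replicate block, and 6 to 204 with a mouse left out. The negative count of 167 became 363 with DESeq2, 343 without a filter and 55 to 327 with a mouse left out, and it was 231 with the replicate block. Other settings gave 73 and 165 (RLE scaling), 52 and 129 (library totals), 81 and 172 (limma-trend), 62 and 119 (strict filter), 89 and 204 (sex) and 75 and 163 (background reads).

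The replicate block fitted the replicate numbers as a factor. Deviations of mice with the same number correlated at 0.166, 0.163 and 0.152 between control and p53mut and at −0.113 to 0.294 between the other groups. The signs differed between groups, so the numbers do not pair mice across all 4 groups; a weak pairing of control with p53mut mice alone was not tested. The block ended the calls of *Itga1* (adjusted p 0.105), *Hsph1* (0.101), *AC165960.1* (0.117), *Nxpe1-ps* (0.0575), *Banp* and *Timp2* (0.0503 each).

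The term changed sign in 8 settings, all of uncalled genes. *Nf1* was 0.0383 without NPmut 2 (−0.2748 without NPmut 4). *Nfkb1* was −0.0013 with library totals, −0.0522 without control 1 and −0.033 without NrasG12D 1 (0.126 without NrasG12D 2). *Spry1* was −0.0402 with the replicate block and −0.0351 without NPmut 4 (0.4429 without NrasG12D 2). *Rasgrp1* was −0.24 without NPmut 1 (1.4911 without NrasG12D 3), and *Rasgrp3* was −0.35 without control 2 (2.288 without p53mut 3).

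Genotype, pI-pC and moribund stage cannot be told apart in NPmut mice; the cause was not tested. Reads of olfactory and vomeronasal receptor genes, a background, averaged 151, 106, 44.5 and 36.6 CPM in control, p53mut, NrasG12D and NPmut mice. Their interaction was 0.06, taken from group means of the log2 value of each mouse and not from these averages. NPmut 2 had 12.3% mitochondrial counts, against 6.644 to 10.05 in the others. Cell mixture in these 13 samples was taken from RNA alone, and with 3 or 4 mice a group, terms under 1 in size were often unresolved.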
